A study of Mus musculus with 14 samples.

Results

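The 10 genes described here were Atf4, Atf5, Chac1, Ddit3, Trib3, Asns, Phgdh, Psat1, Mthfd2 and Shmt2, which belong to the integrated stress response and to serine synthesis with its mitochondrial folate branch. They were taken by name from a list of 10 symbols, out of 56941 gene IDs in the deposited tables. No cut on measured values was made, but earlier results of these data were known when the genes were chosen. All 10 passed the filter on low counts at both stages. Polyadenylated RNA of mouse embryonic forebrain had been sequenced in 14 libraries. The double conditional knockout libraries (dcKO) came from embryos with floxed Sbno1, floxed Trp53 and the Emx1-Cre driver, and the ff libraries came from embryos with the floxed alleles alone. E18.5, the day of gestation 18.5, is represented by cerebral cortex with 4 dcKO and 4 ff libraries, and E12.5 by telencephalon with 3 dcKO and 3 ff libraries. Both Sbno1 and Trp53 were floxed in every group, and no group carried the driver alone or a single knockout, so the driver, the loss of Sbno1 and the loss of Trp53 cannot be told apart. Emx1-Cre is known to act in progenitors of the dorsal telencephalon and in the cells they give rise to, so interneurons, vessels, microglia and, at E12.5, the ventral telencephalon keep intact floxed alleles. Sbno1 is named after strawberry notch of the fly, and Trp53 encodes the transcription factor p53.

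In the integrated stress response, kinases that sense amino acid shortage, unfolded proteins in the endoplasmic reticulum, haem shortage or double-stranded RNA phosphorylate the initiation factor eIF2. General translation then falls, while messengers with short upstream reading frames, among them those of Atf4 and Atf5, are translated more. ATF4 and its partners bind C/EBP-ATF response elements and raise genes of amino acid uptake and synthesis, of serine and folate metabolism, and of cell death. In the brain the enzymes of serine synthesis are best known from radial glia and astrocytes, which supply serine to neurons.

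Sequence before the RefSeq start of transcription was examined in the mouse build GRCm38.p6, in which all 10 genes had at least 1 promoter window. The core TGATGNAA of the C/EBP-ATF response element was searched on both strands in the 250 bases before each start. It was present in 2 of the 12 windows of the 10 genes, those of Chac1 and Asns, and in 3.45% of all 32851 windows in the table. A match there began 193 bases before the Chac1 start and 23 bases before the Asns start. Trib3 held one that began 15 bases after its start, where the share over all windows was not counted. These stretches are shown because Chac1 and Trib3 passed the threshold at E18.5 and Asns, with the letters nearest before its start, did not. A match is a description of letters, and binding was not measured. Elements further before the start, or with other letters, were not searched for, so a gene without a match may still hold one. Each sequence is written 5′ to 3′ on the gene's strand, with the match in capitals.
Chac1, plus strand, chr2:119350992-119351191: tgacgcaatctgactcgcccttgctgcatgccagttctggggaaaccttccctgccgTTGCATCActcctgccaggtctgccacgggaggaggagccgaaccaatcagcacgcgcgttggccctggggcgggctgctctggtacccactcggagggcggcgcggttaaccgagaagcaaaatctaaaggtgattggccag
Trib3, minus strand, chr2:152344029-152344056: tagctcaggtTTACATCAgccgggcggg
Asns, minus strand, chr6:7693215-7693242: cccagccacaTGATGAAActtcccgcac

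Depth and labels bear on how firmly the values can be read. Total expected counts were 5.98 M (M, 1000000 counts) in dcKO replicate 1 at E18.5 and 48.6 to 82.0 M in the other 7 libraries of that stage. The shallowest E12.5 library, replicate 1 of ff, held 4.92 M, and the remaining 5 held between 42.0 M and 67.4 M. All 7 dcKO libraries carried chromosome Y transcripts, whereas the ff libraries included 1 female of 3 at E12.5 and 2 females of 4 at E18.5. Sbno1 averaged 72.4 ± 4.24 CPM (counts scaled to a common library total) in the libraries labelled dcKO and 73.6 ± 1.31 CPM in ff at E18.5 (SD, n = 4 each, adjusted p = 0.682 by edgeR's quasi-likelihood test). At E12.5 Sbno1 averaged 70.2 ± 5.77 CPM in dcKO and 106 ± 9.29 CPM in ff (SD, n = 3 each, adjusted p = 0.0505 by the same test). Trp53 passed the threshold at E18.5, at 65.0 ± 6.25 CPM in libraries labelled dcKO and 75.0 ± 2.53 CPM in ff (SD, n = 4 each). It did not pass at E12.5, at 106 ± 2.32 CPM in dcKO and 123 ± 15.4 CPM in ff (SD, n = 3 each, adjusted p = 0.218 by the same test). Whole-gene counts include exons that remain after recombination, and the labels do not name the floxed exons. Emx1, the locus that carries the driver, averaged 15.1 ± 0.88 CPM in the libraries labelled dcKO and 26.4 ± 1.26 CPM in ff at E18.5 (SD, n = 4 each, adjusted p = 8.31e-06 by edgeR's quasi-likelihood test). At E12.5 it averaged 31.9 ± 1.47 CPM in dcKO and 62.3 ± 4.42 CPM in ff (SD, n = 3 each, adjusted p = 0.00833 by the same test). Because the Sbno1 counts do not separate the E18.5 groups, directions at that stage are those of the libraries labelled dcKO. In most samples the library name in the description also belonged to a sample titled with the other genotype, so groups were read from the genotype in the column names. The choroid plexus transcript Ttr was nearly absent from E18.5 dcKO replicate 3, at 1.82 TPM (a level per transcript length, scaled to a common total), while the 7 remaining libraries held 1401 to 3203 TPM.

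At E18.5, 8 of the 10 genes were higher in the libraries labelled dcKO and none was lower. Trib3 rose most, at 2.68-fold, followed by Atf5 at 1.97-fold, while Chac1, Psat1, Ddit3, Shmt2, Mthfd2 and Atf4 rose between 1.22-fold and 1.58-fold. Asns and Phgdh did not pass the threshold. Each gene was tested with edgeR's quasi-likelihood test on rounded expected counts, with p adjusted by Benjamini-Hochberg over all 17974 genes tested and a threshold of 0.05. By the same test 15.6% of all genes tested were higher and 16.6% lower. Log2 fold changes (dcKO over ff) of the 10 genes had a median of 0.44, against 0.03 for all genes tested. The values in the 4 libraries labelled dcKO lay above all 4 ff values in CPM for these 8 genes, as they did for 16.1% of all genes. Nothing in the labels says whether libraries of a group came from separate litters, so the p-values measure the spread between these libraries.

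Cell type markers moved between the same groups. All 10 neuron markers tested were lower in libraries labelled dcKO at E18.5, with summed levels of 4235 to 4841 TPM, against 6317 to 6526 TPM in ff. Of the radial glia markers 8 of 10 were higher and none lower, with sums of 2559 to 2853 TPM in dcKO and 2360 to 2474 TPM in ff. Of the astrocyte markers 5 of 10 were higher and none lower, with sums of 1058 to 1261 TPM in dcKO and 715 to 827 TPM in ff. Microglial markers were higher for 4 of 8, at 167 to 193 TPM in dcKO and 114 to 141 TPM in ff. Erythroid markers summed to 595 to 2762 TPM in dcKO and 3648 to 6196 TPM in ff, groups that did not overlap, with a median log2 fold change of -1.43 over the 7 tested. Of these 7 none passed the threshold and 3 had an unadjusted p below 0.05 by edgeR's quasi-likelihood test. Choroid plexus markers summed to 44.9 to 3416 TPM in dcKO and 1509 to 2622 TPM in ff, and 0 of the 10 tested passed the threshold or had an unadjusted p below 0.05 by the same test. None of the markers in any list that the tables hold was at 0 in all libraries. The part of cell composition in the changes of the 10 genes was not tested. In such bulk samples fewer cells of a type and less RNA per cell cannot be told apart.

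**Figure D1:**
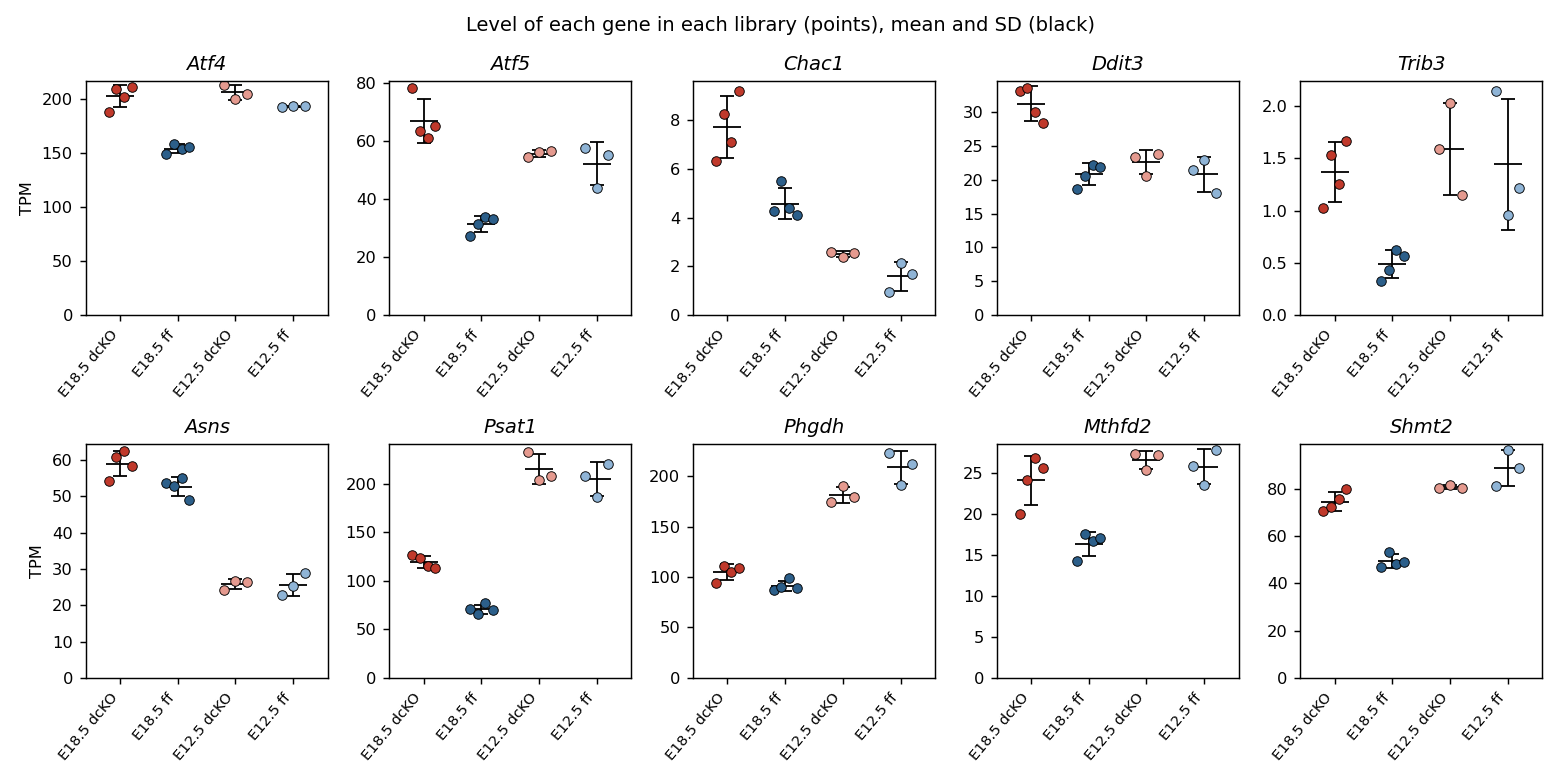
Level of each of the 10 genes in TPM (vertical axes from 0, scaled per gene), with a point for each library and black bars for the mean and SD, in E18.5 dcKO, E18.5 ff, E12.5 dcKO and E12.5 ff from left to right. At E18.5 the 4 dcKO points of Atf5 lie between 61.3 and 78.2 TPM, above the ff points at 27.4 to 33.7 TPM, whereas the E12.5 groups overlap.

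Among the transcription factors, and among all 10 genes, Atf5 had the lowest p. Atf5 encodes a bZIP factor related to ATF4 that is translated under eIF2 phosphorylation and is known to keep neural progenitors in cycle. It was at 78.2, 63.6, 61.3 and 65.1 TPM in the 4 libraries labelled dcKO, against 27.4, 31.4, 33.7 and 33.3 TPM in ff. The lowest dcKO value was well above the highest ff value. The log2 fold change of Atf5 was 0.97 ± 0.09 (SE, adjusted p = 1.44e-05, edgeR quasi-likelihood test), which put it above 95.9% of all genes tested.

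Atf4 itself, the effector whose translation defines the response, was the most abundant of the 10 genes at this stage and changed least of those that passed. It was at 188, 209, 201 and 211 TPM in the libraries labelled dcKO, against 149, 158, 153 and 155 TPM in ff. The groups were apart, with a log2 fold change of 0.29 ± 0.05 (SE, adjusted p = 0.00132, edgeR quasi-likelihood test). The tables hold messenger levels and say nothing of ATF4 protein. Ddit3, which encodes CHOP, a pro-apoptotic partner of ATF4, was at 33.2, 33.6, 29.95 and 28.3 TPM in the libraries labelled dcKO, against 18.7, 20.6, 22.2 and 21.8 TPM in ff. No value was shared between the groups, and the log2 fold change was 0.49 ± 0.11 (SE, adjusted p = 0.00378, edgeR quasi-likelihood test).

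The pair of ATF4 and CHOP targets with the lowest levels also rose. Trib3 encodes a pseudokinase that binds AKT and ATF4 and curbs the response. It was at 1.03, 1.53, 1.26 and 1.67 TPM in the libraries labelled dcKO, against 0.33, 0.43, 0.62 and 0.57 TPM in ff. All dcKO libraries were above all ff libraries, and the log2 fold change of 1.42 ± 0.27 (SE, adjusted p = 0.00170, edgeR quasi-likelihood test) rested on 6, 71, 66 and 80 counts in dcKO and 20, 34, 36 and 28 counts in ff. Chac1 encodes an enzyme that degrades glutathione. Its values were 6.35, 8.26, 7.11 and 9.21 TPM in the libraries labelled dcKO, against 4.28, 5.53, 4.42 and 4.10 TPM in ff. The gap between the groups was narrow, since the lowest dcKO value and the highest ff value differed by less than the range within either group, and the log2 fold change was 0.66 ± 0.14 (SE, adjusted p = 0.00357, edgeR quasi-likelihood test).

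Asns, which makes asparagine from aspartate and is among the best known ATF4 targets, did not pass the threshold. It was at 54.3, 60.7, 62.4 and 58.5 TPM in the libraries labelled dcKO, against 53.7, 52.8, 55.0 and 48.8 TPM in ff. The groups overlapped, with a log2 fold change of 0.04 ± 0.07 (SE, adjusted p = 0.664, edgeR quasi-likelihood test). An interval of 2 SE on either side ran from 0.94-fold to 1.14-fold. Of the genes with the TGATGNAA letters before their start, Chac1 therefore passed and Asns did not, and their ratio is compared further on.

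Of the serine synthesis enzymes, the second passed the threshold and the first did not. Phgdh oxidises phosphoglycerate in the first step, and Psat1 transfers an amino group in the second. Psat1 was at 126, 124, 115 and 114 TPM in the libraries labelled dcKO, against 70.6, 65.7, 77.2 and 69.9 TPM in ff. Every dcKO value stood far above the ff range, and the log2 fold change was 0.60 ± 0.07 (SE, adjusted p = 7.54e-05, edgeR quasi-likelihood test). Phgdh was at 94.2, 111, 105 and 109 TPM in the libraries labelled dcKO, against 86.8, 90.0, 98.7 and 88.9 TPM in ff. The ranges of Phgdh overlapped, and its log2 fold change of 0.11 ± 0.08 (SE) did not pass the threshold (adjusted p = 0.300, edgeR quasi-likelihood test), with an interval of 2 SE on either side from 0.97-fold to 1.20-fold. Psph, the phosphatase of the last step, had a log2 fold change of 0.17 ± 0.10 (SE) and did not pass either (adjusted p = 0.202, edgeR quasi-likelihood test), a gene named after its values were seen.

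The mitochondrial folate enzymes downstream of serine both rose. Shmt2, which converts serine to glycine and loads a carbon onto folate, was at 70.5, 72.3, 75.4 and 79.8 TPM in the libraries labelled dcKO, against 46.7, 53.3, 48.2 and 49.2 TPM in ff. The log2 fold change of Shmt2 was 0.39 ± 0.06 (SE, adjusted p = 0.000370, edgeR quasi-likelihood test), with no overlap. Mthfd2, which oxidises the folate intermediate that SHMT2 makes, was at 19.9, 24.2, 26.8 and 25.6 TPM in the libraries labelled dcKO, against 14.2, 17.5, 16.7 and 17.01 TPM in ff. The groups of Mthfd2 were apart by a smaller margin, with a log2 fold change of 0.39 ± 0.09 (SE, adjusted p = 0.00449, edgeR quasi-likelihood test). Its call was lost in the male libraries alone (log2 fold change 0.34, adjusted p = 0.0581, edgeR quasi-likelihood test), and that of Ddit3 in counts thinned to the shallowest library (0.41, adjusted p = 0.0522, same test).

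**Figure D2:**
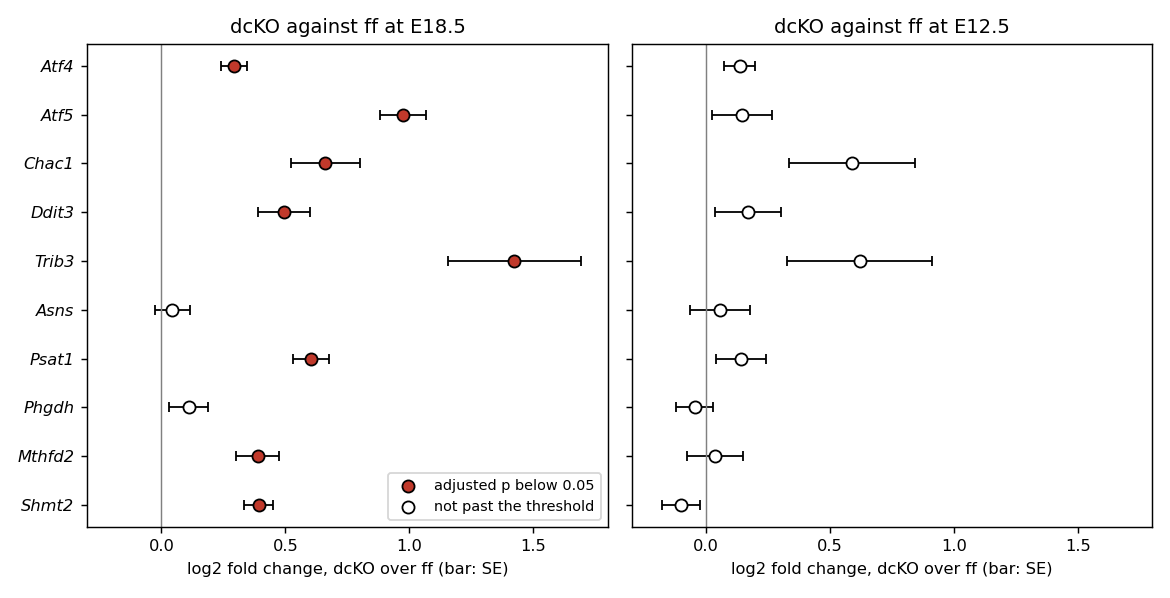
Log2 fold change of each gene, dcKO over ff, at E18.5 (left) and E12.5 (right), with bars for 1 SE and filled points for an adjusted p below 0.05. At E18.5 8 of 10 points are filled, with Trib3 at 1.42 and Atf5 at 0.97, and at E12.5 none is.

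Some libraries stood apart. Without dcKO replicates 1 and 3, the shallow library and the one nearly free of Ttr, the same test still called these 8 genes. Within the group labelled dcKO, replicate 1 had the highest Atf5 and Psat1 values in TPM and the lowest values of Atf4, Chac1, Trib3, Asns, Phgdh, Mthfd2 and Shmt2. On the log2(TPM + 1) scale the median of all genes lay 0.12 higher in dcKO than in ff, against 0.03 on the count scale. On that scale the differences of Asns and Phgdh were 0.16 and 0.20 (two-sided exact permutation p = 0.0571 each). Both lay above the median of 0.12 over all genes, and the part of that shift in them was not tested. The other 8 genes had differences of 0.39 to 1.07 with an exact permutation p of 0.0286, the smallest that 4 against 4 libraries allow. In the authors' deposited table for this stage 8 of the 10 genes had an adjusted p below 0.05, and the log2 fold changes were 1.27 for Trib3 and 0.94 for Atf5 in a direction its header does not state.

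Exon overlaps bear on some of these counts. In GENCODE M21 exons of Atf5 overlap Nup62 and Il4i1 on the opposite strand, those of Ddit3 overlap Mars1 and Gm4189, and those of Shmt2 overlap Ndufa4l2. The library kit marks strand, but the setting used in counting is not given in the sources used here. Nup62, a nuclear pore gene, averaged 66.1 ± 5.98 CPM in the libraries labelled dcKO and 69.7 ± 2.84 CPM in ff. Il4i1, an amino acid oxidase gene that passed the threshold at E18.5, averaged 0.78 ± 0.67 CPM in the libraries labelled dcKO and 0.21 ± 0.06 CPM in ff. Ndufa4l2 averaged 5.80 ± 1.06 CPM in the libraries labelled dcKO and 5.54 ± 0.78 CPM in ff (SD, n = 4 each, as for the other overlapping genes). Reads of such pairs cannot be told apart if strand was not used, and the level of Mars1 is given with its list below. A second Ddit3 gene ID held 0 to 4 counts per library and was not used, and Phgdh counts were fractional in all 14 libraries, so some of its reads were shared with other genes. Counts were fractional in 0 of the 14 libraries for Atf5 and for Shmt2, and in 4 for Ddit3. The second Ddit3 ID, whose exons overlap those of the first on the same strand, was also fractional in 4. Whether reads of the overlapping genes entered these counts was not tested.

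At E12.5 none of the 10 genes passed the threshold, and 1 of them, Chac1, had an unadjusted p below 0.05 by edgeR's quasi-likelihood test. By the same test 0.19% of all 17853 genes passed in either direction, 34 in all, and 3433 had an unadjusted p below 0.05. The DESeq2 Wald test called none of the 10 and gave none an unadjusted p below 0.05, with 2 adjusted values left undefined. The median log2 fold change of the 10 genes was 0.14, against 0.01 for all genes, and a correction for effective length took it to 0.01. It was 0.05 without ff replicate 2 and 0.06 in counts thinned to the shallowest library. Atf4 and Chac1 did not overlap between the groups in CPM, with dcKO higher, as for 13.5% of all genes.

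Chac1 was at 2.61, 2.38 and 2.55 TPM in dcKO at E12.5, against 0.97, 2.13 and 1.68 TPM in ff. The dcKO libraries were close together and the lowest ff value came from the shallow replicate 1, in which Chac1 had 4 counts. The log2 fold change was 0.59 ± 0.25 (SE, adjusted p = 0.251, edgeR quasi-likelihood test). Atf4 was at 213, 200 and 204 TPM in dcKO, against 192, 194 and 193 TPM in ff. The difference was 0.14 ± 0.06 (log2, SE, adjusted p = 0.283, edgeR quasi-likelihood test), a separation of tight groups by a small amount.

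Trib3 had the highest estimate at this stage and no separation in TPM. It was at 1.59, 2.03 and 1.15 TPM in dcKO, against 2.15, 0.96 and 1.22 TPM in ff, where the first ff library held 5 counts. The log2 fold change was 0.62 ± 0.29 (SE, adjusted p = 0.294, edgeR quasi-likelihood test). Atf5 was at 54.4, 56.2 and 56.7 TPM in dcKO, against 57.8, 43.8 and 55.1 TPM in ff, so that the ff library with the most Atf5 exceeded every dcKO library. Psat1 was at 233, 204 and 208 TPM in dcKO, against 208, 187 and 221 TPM in ff, and the groups overlapped. Shmt2 was at 80.2, 81.7 and 80.3 TPM in dcKO, against 81.2, 96.5 and 88.7 TPM in ff. Ddit3, Asns, Mthfd2 and Phgdh had log2 fold changes of 0.17, 0.06, 0.03 and -0.05, each within 2 SE of 0. In TPM Phgdh was at 174, 190 and 179 in dcKO, against 223, 191 and 212 in ff, lower without overlap. Its two-sided exact permutation p was 0.1, the smallest that 3 against 3 libraries allow. The share of all genes that separate in TPM was not counted.

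The genotype effect was then compared between the stages in 1 fit of the 4 groups, as the effect at E18.5 minus the effect at E12.5, by edgeR's quasi-likelihood test. It was larger at E18.5 for Atf5, Psat1 and Shmt2, and smaller for none of the 10 genes. Of all 19327 genes tested, 7.12% had a larger and 9.41% a smaller effect at E18.5. Atf5 differed by 0.78 ± 0.15 on the log2 scale (SE, adjusted p = 0.00347), Shmt2 by 0.45 ± 0.10 (adjusted p = 0.00984) and Psat1 by 0.42 ± 0.13 (adjusted p = 0.0363). The call of Psat1 was lost in 9 of the 14 fits that left out 1 library, with adjusted p up to 0.108. The estimate was 0.29 without E12.5 ff replicate 3, and 0.39 without E12.5 dcKO replicate 2 or 3. It was 0.42, 0.36 and 0.43 without E18.5 dcKO replicates 1, 2 and 4, and 0.42, 0.38 and 0.40 without E18.5 ff replicates 1, 2 and 4. For the other 7 genes the difference between the stages did not pass the threshold. Trib3 had the largest such estimate, at 0.76 ± 0.40 (SE, adjusted p = 0.209), and Mthfd2 was at 0.31 ± 0.15 (SE, adjusted p = 0.164). Chac1 differed by 0.03 ± 0.28 (SE), an interval of 2 SE on either side that ran from 0.70-fold to 1.51-fold. Stage and dissected tissue cannot be told apart in this comparison.

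The levels of the 10 genes also differed between the stages within a genotype, in the same fit of 4 groups. In dcKO, 3 genes were higher at E18.5 than at E12.5 and 5 were lower, and 30.9% of all genes tested were higher and 31.3% lower. In ff, 2 were higher and 7 lower, where 31.5% of all genes were higher and 29.9% lower. The counts of genes called higher were thus at or below these shares, and the counts called lower were above them. Chac1 rose in both, with a log2 fold change of 1.42 ± 0.20 in dcKO and 1.39 ± 0.21 in ff (SE, E18.5 over E12.5). Asns rose by 0.96 ± 0.10 in dcKO and by 1.01 ± 0.10 in ff. In TPM, Asns averaged 58.97 ± 3.49 in E18.5 dcKO and 25.8 ± 1.32 in E12.5 dcKO, and 52.6 ± 2.64 in E18.5 ff and 25.6 ± 3.04 in E12.5 ff (SD, n = 4 at E18.5 and 3 at E12.5). The stage change of Asns in dcKO minus that in ff was -0.05 ± 0.14 (log2, SE).

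Serine synthesis went the other way. Psat1 had a log2 fold change between the stages of -1.10 ± 0.09 in dcKO and -1.52 ± 0.09 in ff (SE), and Phgdh one of -1.05 ± 0.09 in dcKO and -1.15 ± 0.09 in ff. Psat1 averaged 120 ± 6.31 TPM in E18.5 dcKO and 215 ± 15.6 TPM in E12.5 dcKO, and 70.9 ± 4.72 TPM in E18.5 ff and 205 ± 17.2 TPM in E12.5 ff. Shmt2 and Mthfd2 were also lower at E18.5, with log2 fold changes of -0.47 and -0.32 in dcKO and of -0.92 and -0.64 in ff. The Mthfd2 call in dcKO was lost without E12.5 dcKO replicate 3, at -0.30. Atf4 was lower in both, at -0.23 ± 0.06 in dcKO and -0.34 ± 0.06 in ff (SE).

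Atf5, Trib3 and Ddit3 passed the threshold for the stage in one genotype alone. Atf5 had a stage difference of 0.04 ± 0.11 in dcKO and -0.74 ± 0.11 in ff (log2, SE), and the test of the difference between these is that given above for the genotype effect. Trib3 was at -0.42 ± 0.27 in dcKO and -1.18 ± 0.29 in ff, and Ddit3 at 0.31 ± 0.11 in dcKO and 0.03 ± 0.11 in ff (log2, SE). For Trib3 and Ddit3 the difference between the genotypes did not pass (adjusted p = 0.209 and 0.239, edgeR quasi-likelihood test). The Ddit3 call in dcKO was lost without E12.5 dcKO replicate 2 or E18.5 dcKO replicate 2 (log2 fold changes 0.26 and 0.25).

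**Figure D3:**
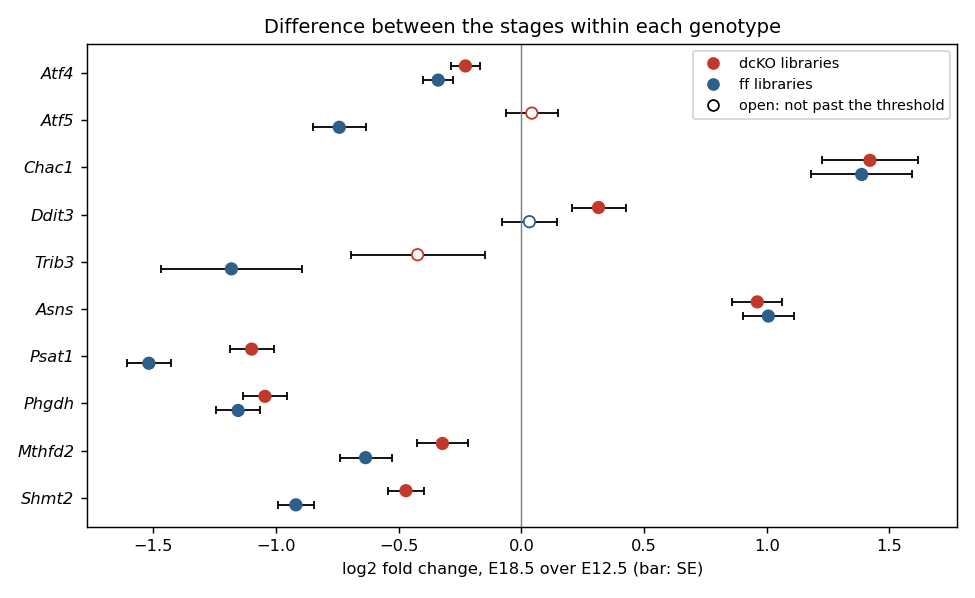
Log2 fold change between the stages, E18.5 over E12.5, for each gene in dcKO (red, upper) and ff (blue, lower), with bars for 1 SE and open points where the threshold was not passed. Psat1 lies at -1.10 in dcKO and -1.52 in ff, and Atf5 at 0.04 in dcKO and -0.74 in ff.

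The order of levels, which TPM allow to be compared between genes, shifted with both stage and genotype. At E18.5 Atf4 led in both genotypes, at 202 ± 10.3 TPM in dcKO and 154 ± 3.94 TPM in ff (SD, n = 4 each). Psat1 came next in libraries labelled dcKO and Phgdh next in ff, and in each group the libraries of these enzymes did not overlap. At E12.5 Psat1 led in dcKO with libraries that overlapped those of Atf4, and in ff Phgdh, Psat1 and Atf4 all overlapped. Mthfd2, Asns and Ddit3 came close together at E12.5, with means between 22.6 and 26.6 TPM in dcKO and between 20.8 and 25.7 TPM in ff. Chac1 and Trib3 were the lowest of the 10 genes in every group.

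Psat1 and Phgdh are consecutive enzymes, and their ratio was taken within each library. Such a ratio is free of the library's total, but in TPM it still depends on the effective lengths. The ratio of Psat1 to Phgdh in TPM was 1.34, 1.12, 1.09 and 1.04 in the E18.5 libraries labelled dcKO, against 0.81, 0.73, 0.78 and 0.79 in ff. At E12.5 it was 1.34, 1.08 and 1.16 in dcKO, against 0.93, 0.98 and 1.04 in ff. The dcKO libraries were above the ff libraries at both stages, a separation whose share over other gene pairs was not counted. The log2 difference was 0.56 at E18.5 (two-sided exact permutation p = 0.0286, adjusted over 4 tests 0.0571) and 0.27 at E12.5 (p = 0.1, the smallest that 3 against 3 allow). With counts in place of TPM the difference was 0.51 at E18.5 and 0.19 at E12.5. At E12.5 the log2(TPM + 1) difference, dcKO minus ff, was 0.07 for Psat1 and -0.20 for Phgdh. The ratio of Chac1 to Asns was 0.12, 0.14, 0.11 and 0.16 in the E18.5 libraries labelled dcKO, against 0.08, 0.10, 0.08 and 0.08 in ff. At E12.5 it was 0.107, 0.089 and 0.097 in dcKO, against 0.043, 0.084 and 0.058 in ff. The lowest ff value came from the shallow replicate 1, with 4 Chac1 counts. The log2 difference of this ratio was 0.59 at E18.5 and 0.71 at E12.5, with the same exact permutation p-values as the first ratio. Both pairs were chosen after the values had been seen, so these tests describe the libraries and are not independent evidence. Among single genes at E12.5, the groups did not overlap in CPM for 13.5% with dcKO higher and 13.2% with dcKO lower. Separation of either ratio at E12.5 was therefore not taken as a repeat of the E18.5 difference.

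**Figure D4:**
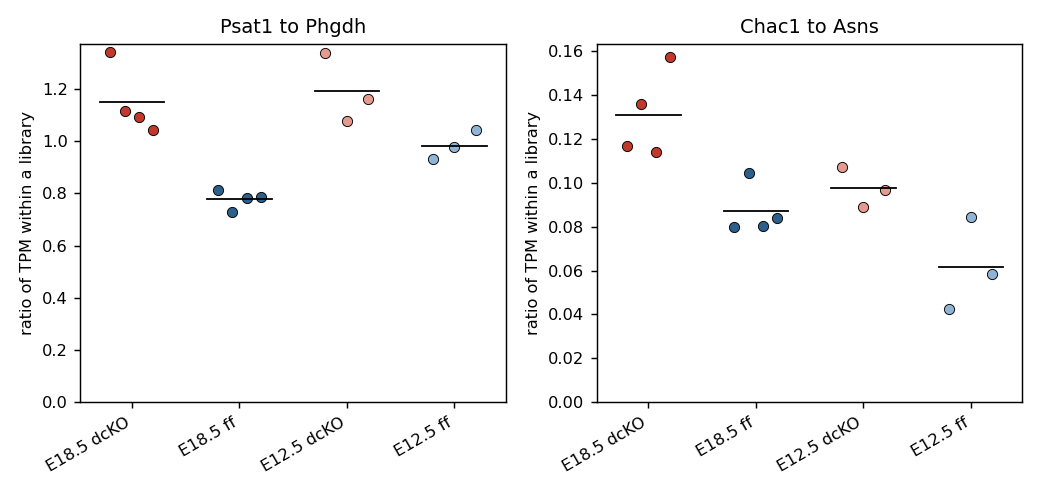
Ratio of TPM values within each library (points) and group mean (bar) for Psat1 to Phgdh (left) and Chac1 to Asns (right), in E18.5 dcKO, E18.5 ff, E12.5 dcKO and E12.5 ff from left to right. The Psat1 to Phgdh ratio lies between 1.04 and 1.34 in the E18.5 dcKO libraries, above the ff libraries at 0.73 to 0.81.

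Other genes of the pathway were read from 5 lists, at E18.5 beside the shares of 15.6% higher and 16.6% lower over all genes and the median log2 fold change of 0.03. Among 33 partners and other targets of ATF4, 31 were tested, 9 were higher and 4 lower in libraries labelled dcKO, and the median was 0.12. Gdf15 and Fgf21 were too low to be tested. Sesn2, a stress-induced regulator of mTORC1 that p53 also controls, rose to 14.5 ± 2.44 CPM in dcKO, against 8.63 ± 0.67 CPM in ff. The amino acid transporters Slc1a5 and Slc7a3, for glutamine and for cationic amino acids, rose by 0.67 ± 0.12 and 0.70 ± 0.13 (log2, SE). Bbc3, which encodes the pro-apoptotic p53 target PUMA, fell to 16.01 ± 0.89 CPM in dcKO, against 26.5 ± 1.67 CPM in ff (SD, n = 4 each). Pycr1, for proline synthesis, and Bcat1, a branched-chain aminotransferase, had log2 fold changes of -0.60 ± 0.09 and -0.40 ± 0.04 (SE).

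The sensors and regulators of eIF2 gave 1 gene higher and 4 lower of 20 tested, with a median log2 fold change of -0.06. Eif2ak2, the kinase PKR that senses double-stranded RNA, rose to 7.57 ± 1.63 CPM in libraries labelled dcKO, against 4.12 ± 0.65 CPM in ff (log2 fold change 0.87 ± 0.17). At E12.5 it was at 6.58 ± 0.76 CPM in dcKO and 10.5 ± 1.39 CPM in ff (log2 fold change -0.67, adjusted p = 0.0860, edgeR quasi-likelihood test), and the difference between the stages was 1.501 ± 0.25 (log2, SE, adjusted p = 0.00113, same test). Oma1, the mitochondrial protease that starts the relay from mitochondria to the kinase HRI, fell to between 3.52 and 6.34 CPM in libraries labelled dcKO at E18.5, against 9.13 to 10.6 CPM in ff, with a log2 fold change of -0.98 ± 0.16 (SE). Eif2b3, a subunit of the exchange factor eIF2B, had a log2 fold change of -0.31 ± 0.07 (SE). Ppp1cb, a catalytic phosphatase subunit, was at -0.25 ± 0.06. The kinases of the other branches and the phosphatase subunits Ppp1r15a and Ppp1r15b did not pass the threshold.

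The list of serine, glycine and folate metabolism had 7 genes higher and 3 lower of 27 tested, with a median log2 fold change of 0.12. Mtr, methionine synthase, rose to 23.2 ± 1.51 CPM in libraries labelled dcKO, against 16.2 ± 1.26 CPM in ff (SD, n = 4 each). Mat2a, which makes S-adenosylmethionine, rose by 0.37 ± 0.06 and the cytosolic folate enzyme Mthfd1 by 0.22 ± 0.05 (log2, SE). Sfxn1, the serine carrier of mitochondria, had a log2 fold change of -0.34 ± 0.06, the purine enzyme Atic one of -0.26 ± 0.05 and the mitochondrial folate enzyme Aldh1l2 one of -0.23 ± 0.05 (SE). The mitochondrial branch thus held genes in both directions, with Shmt2 and Mthfd2 higher and Sfxn1 and Aldh1l2 lower.

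Cytosolic aminoacyl-tRNA synthetases and their partners gave 1 gene higher and 4 lower of 24 tested, with a median of -0.07. Mars1, whose exons overlap Ddit3 on the opposite strand, was the higher one, at 88.7 ± 3.50 CPM in libraries labelled dcKO and 76.0 ± 2.14 CPM in ff. Farsb, Sars1 and Gars1, for phenylalanine, serine and glycine, fell, with log2 fold changes of -0.29 ± 0.05, -0.28 ± 0.05 and -0.24 ± 0.05 (SE). Chaperones and other arms of the unfolded protein response gave 2 higher and 3 lower of 26, with a median of 0.04. Syvn1, a ubiquitin ligase of the endoplasmic reticulum, rose by 0.44 ± 0.06 and the chaperone Hyou1 by 0.16 ± 0.05 (log2, SE). Xbp1, the transcription factor of the IRE1 arm, Edem1, which sorts misfolded glycoproteins, and the disulfide isomerase Pdia3 had log2 fold changes of -0.44 ± 0.06, -0.46 ± 0.08 and -0.17 ± 0.05 (SE).

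**Figure D5:**
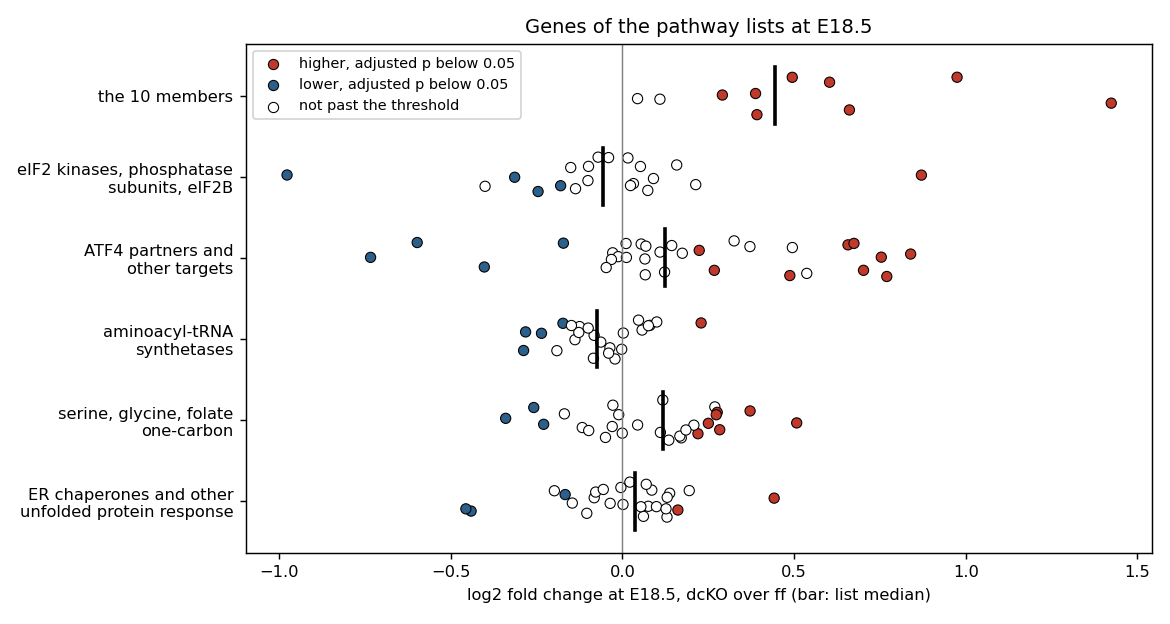
Log2 fold change at E18.5, dcKO over ff, of each tested gene of the 10 genes and of 5 pathway lists (points, vertical scatter without meaning), with filled points for an adjusted p below 0.05 and a bar for the list median. The median is 0.44 for the 10 genes and lies between -0.07 and 0.12 in the 5 lists.

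At E12.5 none of the 5 lists held a gene past the threshold by edgeR's quasi-likelihood test, while 5 of 20, 9 of 31, 2 of 24, 5 of 27 and 5 of 26 genes had an unadjusted p below 0.05 in the eIF2, ATF4, synthetase, serine and folate, and endoplasmic reticulum lists. Over all genes the same held for 3433 of 17853. The genes with the lowest p in each list had these log2 fold changes, dcKO over ff. Gcn1, the partner of the kinase GCN2, was at -0.35. Gpt2 and Slc38a2, an aminotransferase and an amino acid transporter, were at -0.25 and -0.24. Aimp1 and Xpot, a synthetase scaffold and a tRNA exporter, were at 0.24 and -0.18. Mtr and Sfxn1 were at -0.37 and -0.19, and Edem1 and Sec61b, a translocon subunit, at -0.23 and 0.24. For Mtr the effect at E18.5 exceeded that at E12.5 by 0.83 ± 0.13 (log2, SE, adjusted p = 0.000695, edgeR quasi-likelihood test).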

How the data were processed

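Poly(A) RNA was sequenced from 14 libraries made with a stranded mRNA kit, per the labels' protocols. Trim Galore, STAR, RSEM and DESeq2 were used, per the submitters' processing notes, and versions, genome build, annotation and strand setting are not given in the sources used here. The authors deposited expected counts and TPM per gene as RSEM output, 1 column per library. The log2 fold changes, their errors and the p-values of the authors' comparison came from DESeq2, per the file headers, and its mean normalized counts, a score the authors deposited, were not used.

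The expected counts, after rounding, were tested with edgeR 4.0.16 in R 4.3.3 (limma 3.58.1) after filterByExpr and TMM scaling, each stage in its own fit, and both stage contrasts and their interaction in 1 fit of 4 groups. Benjamini-Hochberg adjustment ran over all genes tested at a threshold of 0.05. The SE was derived from the F statistic, and intervals are the estimate with 2 SE on either side. CPM are TMM-scaled counts per 1000000. TPM were tested as log2(TPM + 1) by two-sided exact permutation. Alternatives included DESeq2 1.42.0, other filters, sex, a correction for effective length by splines with 5 degrees of freedom, thinned counts and single libraries left out. Sex, the length correction and thinning were applied to the genotype comparisons within a stage alone. Steps were tested on simulated data.

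All 10 genes are named, and from each pathway list the 3 called genes with the lowest p per direction at E18.5, and the 2 with the lowest p at E12.5. The genes, lists, tests and alternatives were chosen with earlier results of these data known. Groups came from the column names, and replicate numbers follow column order within a group. Promoter sequences are from RefSeq GRCm38.p6. Sex came from Xist and chromosome Y transcripts.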

Additional observations from a re-analysis of the deposited data

Results flagged for a closer look

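For 3 of the 10 genes the genotype effect at E18.5 minus that at E12.5, tested as an interaction with edgeR's quasi-likelihood test, passed the threshold. The log2 difference was 0.78 for Atf5 (adjusted p = 0.00347), 0.45 for Shmt2 (adjusted p = 0.00984) and 0.42 for Psat1 (adjusted p = 0.0363), all larger at E18.5. In the separate fit of each stage the genotype difference was 0.97 at E18.5 and 0.14 at E12.5 for Atf5, 0.60 and 0.14 for Psat1, and 0.39 and -0.10 for Shmt2 (log2), and none of the E12.5 values passed the threshold. Stage and dissected tissue cannot be told apart here. In the 20 groups of 4 libraries formed by 10 genes and 2 genotypes at E18.5, no library lay far enough from the others to be singled out.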

How the results depend on the processing

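The count of 8 genes higher at E18.5 lay between 6 and 8 under every alternative run, and the count of 0 at E12.5 held in all of them. Trib3 was left untested at E18.5 where a mean of 1 CPM was required, which lowered the count to 7, and thinning to the shallowest library gave 6 with 1 gene untested. The interaction count was 3 or 2. Sex as a covariate, male libraries alone, the effective length correction and thinned counts were tried for the genotype comparison within each stage. They were not tried for the interaction or for the differences between the stages. Psat1 was also lost with no filter (0.41, adjusted p = 0.0503), which gave 2, and without shallow libraries (0.44, adjusted p = 0.0506), where Mthfd2 passed (0.42, adjusted p = 0.0418) and the count was 3, all by edgeR's quasi-likelihood test. No called value changed sign. Of values called in neither fit, 13 changed sign among the E12.5 results, 4 among those at E18.5, 9 in the interaction, 3 for the stage in dcKO and 2 in ff. Counts over all genes at E12.5 moved more, with 34 called by edgeR, 1209 by the DESeq2 Wald test, 571 without dcKO replicate 1 and 0 without dcKO replicate 2 or 3. The cause was not tested. No paired analysis was possible because replicate numbers in the titles and columns are not shared between the genotypes of a stage. The shallow libraries limit Trib3 and Chac1, which had 4 to 6 counts in some of them.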
